A study of Mus musculus with 7 samples.

Results

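The 8 genes described here encode transcription factors and co-factors that build and keep the B lineage, the branch of blood formation that yields antibody-producing cells. They are Tcf3, Ebf1, Foxo1, Pax5, Ikzf1, Ikzf3, Bach2 and Pou2af1. They were taken by name from a deposited table of 50435 gene rows, in which all 8 were found once and all 8 passed the filter on low values. The samples, 3 from DT mice and 4 from PBS mice, are bone marrow cells that the labels name sinusoidal endothelial cells, which form the walls of wide venous capillaries. Every recipient was an irradiated wild-type mouse that carried transplanted Zbtb46dtr marrow; this allele ties the receptor for diphtheria toxin to Zbtb46, whose expression is typical of classical dendritic cells. At 8 weeks the DT mice received 200 ng of diphtheria toxin, which kills receptor-bearing cells, and the PBS mice received the carrier alone; marrow was taken 1 day later. The labels call the samples biological replicates and give neither strain nor age.

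B cell development in the marrow follows a well studied order. The E protein encoded by Tcf3 (E2A) acts with Ebf1 and Foxo1 to switch on the first B-cell genes in lymphoid precursors. Pax5 then commits the cells to the lineage, the Ikaros family members Ikzf1 and Ikzf3 act from early progenitors to mature cells, Bach2 restrains plasma cell differentiation, and Pou2af1 is a co-activator that works with octamer-binding factors. None of these genes is a defining gene of endothelium, although Foxo1 also acts there.

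The gate kept Lineage- CD31+ Sca1- cells and removed those stained for CD45, Ter119, Gr1 or CD11b, so B-lineage cells, which carry CD45, should have been removed. Values are reads per 1000000 (RPM), although the deposited table is named for FPKM. The RNA nevertheless held much more B-lineage than endothelial message. The 6 B-lineage markers Cd79a, Cd79b, Ms4a1, Cd22, Vpreb3 and Blnk summed to between 2020 and 2230 RPM in DT and between 2860 and 4870 RPM in PBS. The 12 endothelial markers summed to between 10.2 and 18.7 RPM in DT and between 1.44 and 9.35 RPM in PBS, and 9 of those 12 were too low to test. Of the 3 tested, Flt1 was called higher, at 2.08 ± 0.688 RPM in DT and 0.206 ± 0.283 RPM in PBS, and the other two did not pass. It passed the filter only through DT, and no endothelial marker was called without DT replicate 1, 2 or 3 or at a minimum mean of 5 RPM. The junction gene Esam averaged 2.81 ± 1.96 RPM in DT (SD, n = 3) and 0.813 ± 1.16 RPM in PBS (SD, n = 4), and the endothelial cadherin Cdh5 averaged 2.10 ± 1.18 RPM in DT (SD, n = 3) and 0.811 ± 1.27 RPM in PBS (SD, n = 4). Taking the commonest small value as 1 read gave depths between 33200000 and 51200000 reads, and 3 reads correspond to 0.0585 to 0.0904 RPM, a floor that covers counting error only. The 8 factors lay far above that floor in every library. Other blood cell markers differed between the groups too. All 10 neutrophil markers and all 8 monocyte and macrophage markers rose in DT, as did 4 of 7 plasmacytoid dendritic cell markers. The macrophage marker C1qa and the plasmacytoid marker Pacsin1 averaged 0.839 and 0.0883 RPM in PBS. These 2 rises passed the filter only through DT. Of the erythroid markers, 7 of 9 fell and 2 rose. Of the 6 B-lineage markers, 4 fell and 2 did not pass. The neutrophil markers summed to between 54100 and 58300 RPM in DT and between 1840 and 4180 RPM in PBS. The granule gene Ngp, for example, averaged 18500 ± 978 RPM in DT and 777 ± 222 RPM in PBS. The lysozyme gene Lyz2, from the monocyte and macrophage list, averaged 5890 ± 722 RPM in DT and 366 ± 95.3 RPM in PBS. Which cells its RNA came from was not tested. The part of these other cells in the factors' values was not tested.

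DT samples were set against PBS samples to see how RNA in the sort differed after the toxin. Of the 8 factors, 7 fell in DT and none rose, at an adjusted p under 0.05 in limma over 14100 genes. Over all of those genes 18.6% were called lower in DT and 13.4% higher, so 41.9% of calls were rises, against 65.5% under median-ratio and 69% under TMM scaling. In the same 7 genes every DT sample lay below every PBS sample, which was the case for 24.7% of all genes tested. Ikzf3 was the exception. The median log2 change of the 8 factors was -1.04, where the median over all genes tested was -0.23; 7.94% of all genes had a change more negative than -1.04. Changes are on the log2(RPM + 1) scale. Each RPM value is a share of its library. In bulk samples, fewer cells of a type, less RNA per cell and more RNA from other cells cannot be told apart.

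**Figure D1:**
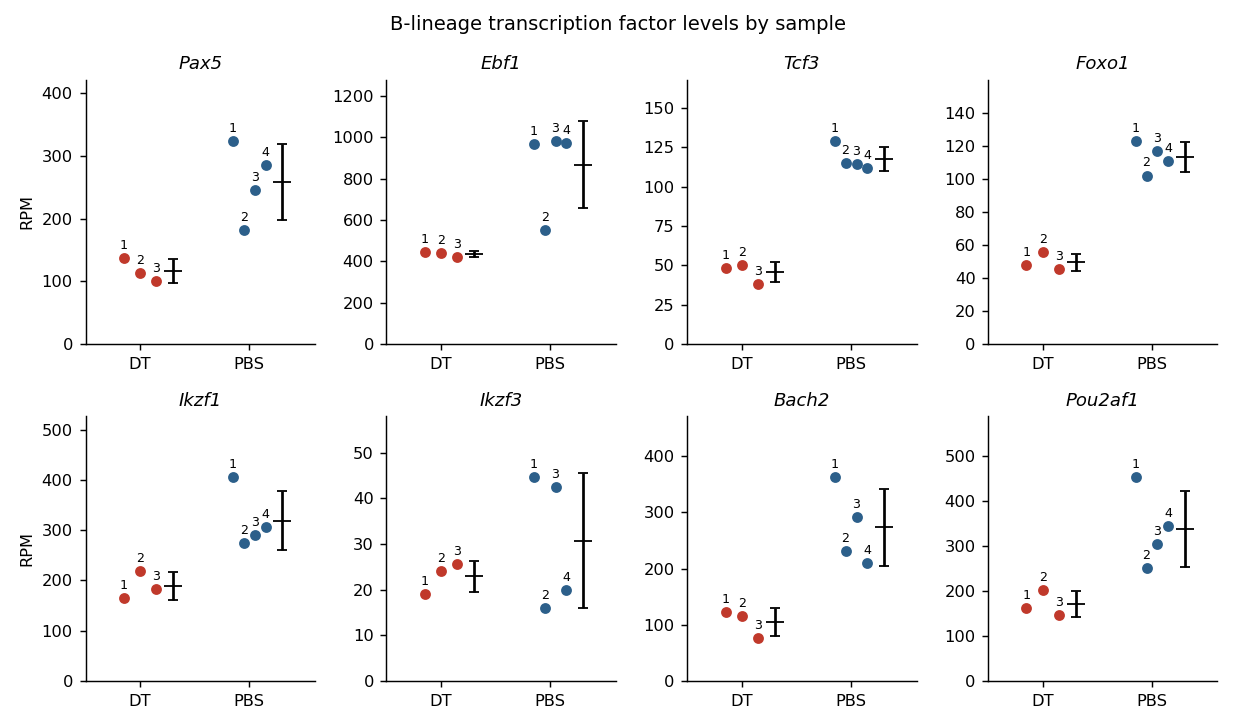
Level of each of the 8 factors in RPM (vertical axes, from 0) in every DT sample (red, left) and PBS sample (blue, right), with the replicate number above each point; bars give mean ± SD. In 7 panels the DT points lie below all PBS points, and in the Ikzf3 panel, where DT averaged 22.9 RPM and PBS 30.8 RPM, they overlap.

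The 3 factors that start the programme fell together. Tcf3 was at 48.6, 50.1 and 38.4 RPM in DT replicates 1 to 3, against 129, 115, 114 and 112 RPM in PBS replicates 1 to 4. The groups were tight and well apart, and the log2 change was -1.35 with a standard error of 0.15 (limma, adjusted p = 0.000138). Foxo1, which drives the recombinase genes, was at 47.6, 55.5 and 45.2 RPM in DT, against 123, 102, 117 and 111 RPM in PBS. Its 7 values fell into 2 narrow ranges that did not meet, and the log2 change was -1.18 with a standard error of 0.14 (limma, adjusted p = 0.000265). Ebf1 was the most abundant of the 8 in RPM, with 446, 439 and 421 RPM in DT, against 969, 550, 983 and 971 RPM in PBS. PBS replicate 2 stood well below the other PBS samples but still above every DT sample. Ebf1 averaged 435 ± 12.9 RPM in DT (SD, n = 3) and 868 ± 212 RPM in PBS (SD, n = 4), a log2 change of -0.95 with a standard error of 0.21 (limma, adjusted p = 0.00784).

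Pax5, the commitment factor, was at 138, 113 and 99.9 RPM in DT, against 324, 182, 245 and 285 RPM in PBS. PBS replicate 2 was again the lowest of its group, and the DT mean was 0.451 times the PBS mean (limma, adjusted p = 0.00301). Among the factors of the later steps, Bach2 had the largest fall of the 8, with 123, 115 and 76.6 RPM in DT, against 362, 231, 292 and 209 RPM in PBS. The samples did not overlap, and the log2 change was -1.37 with a standard error of 0.23 (limma, adjusted p = 0.00171). Pou2af1 was at 163, 203 and 147 RPM in DT, against 453, 252, 305 and 345 RPM in PBS. Its highest DT sample was below its lowest PBS sample, PBS replicate 2, and the DT mean was 0.505 times the PBS mean (limma, adjusted p = 0.00648).

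The 2 Ikaros family zinc finger factors did not give the same call. Ikzf1, which is used across lymphoid and many other blood cells, was at 165, 219 and 182 RPM in DT, against 405, 274, 291 and 306 RPM in PBS. It had the smallest change of the 7 that fell, at -0.75 with a standard error of 0.17 (limma, adjusted p = 0.00882), and did not pass under median-ratio scaling (adjusted p = 0.0739) or TMM scaling. Ikzf3 (Aiolos), which rises as B cells mature and is also found in T and natural killer cells, was at 19.1, 24.1 and 25.6 RPM in DT, against 44.6, 16.0, 42.5 and 20.0 RPM in PBS. The PBS samples fell on both sides of the DT samples, with replicates 1 and 3 high and replicates 2 and 4 low, and the difference did not pass (log2 change -0.29, 95% interval -1.08 to 0.50; limma, adjusted p = 0.56). The difference between the pair was tested directly on the log2 ratio of Ikzf3 to Ikzf1, which averaged -2.98 ± 0.18 in DT (SD, n = 3) and -3.45 ± 0.60 in PBS (SD, n = 4), and it did not pass (exact two-sided permutation p = 0.3143). Ikzf3 was therefore not shown to behave differently from Ikzf1.

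Exact two-sided permutation tests of the difference of means were also run for each factor over the 35 ways to divide the samples. The smallest p that this design allows, 0.0286, was reached by Tcf3, Foxo1, Ikzf1 and Bach2. Pax5, Ebf1 and Pou2af1, each with the low PBS replicate 2, had exact permutation p = 0.0571, and Ikzf3 had exact permutation p = 0.4. These 8 values are not adjusted.

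Levels of different genes were compared after division by length, as RPM per 1000 exonic bases in GENCODE vM21. Pou2af1 was highest, at 67.1 ± 11.4 in DT and 133 ± 33.4 in PBS, followed by Ebf1 at 44.6 ± 1.32 and 89.0 ± 21.8 and Ikzf1 at 32.6 ± 4.79 and 55.2 ± 10.1. Pax5, Tcf3 and Bach2 came next, with means of 13.2, 11.3 and 10.5 in DT and of 29.2, 29.1 and 27.5 in PBS, and the sample ranges of the 3 overlapped in part in each group. Foxo1 followed at 5.70 ± 0.624 in DT and 13.0 ± 1.05 in PBS, and Ikzf3 was lowest at 2.62 ± 0.387 in DT and 3.52 ± 1.70 in PBS. The PBS ranges of Pou2af1 and Ebf1 overlapped, and with the length of the longest transcript in place of all exonic bases Ebf1 came first.

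The genes lie on 5 mouse chromosomes. In mm10 coordinates of GENCODE vM21, Pax5 spans chromosome 4 from 44524757 to 44710487 on the minus strand and Bach2 chromosome 4 from 32238804 to 32586108 on the plus strand. Ebf1, Ikzf1 and Ikzf3 are on chromosome 11, at 44617317 to 45008091, 11685003 to 11772926 and 98464902 to 98546031. Tcf3 is on chromosome 10 at 80409514 to 80433647, Foxo1 on chromosome 3 at 52268336 to 52353221 and Pou2af1 on chromosome 9 at 51213708 to 51240080. All are protein-coding. Strand use in counting is not given in the sources used here, so reads of transcripts on the other strand could be counted with a factor. Exons of Pax5 share 636 bases with 5730488B01Rik, a transcript of the other strand at most 5.086 RPM, and exons of Bach2 share 537 bases with the antisense transcript Bach2os, at most 10.33 RPM. How many reads of these transcripts were counted with the factors was not tested.

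RefSeq promoter sequences (250 bases before to 50 after a start, GRCm38.p6, the assembly of mm10) were found for 7 of the 8 genes, in 9 windows, because these genes are known to control each other and moved together. Short motifs were searched on both strands: CCCNNGGG for EBF factors, CAGGTG for E proteins, TGGGAA for Ikaros proteins, TGTTTAC for FOXO factors and ATGCAAA as the core of the octamer that POU2AF1 acts through. The EBF motif was in 1 Foxo1 window and 1 Ikzf1 window, where 13.7% of all 32851 promoters hold it. The Ikaros motif was in 1 Ebf1 window (25.6% of all promoters) and the octamer core in 1 Ikzf1 window (4.63%). No window held the E protein motif (20.2% of all promoters) or the FOXO motif (3.65%). The 3 windows below are those with the Ikaros, EBF and octamer matches to a motif named for another of the factors, and the matches are in capitals; the other Ikzf1 window with an EBF match is not printed. The Ebf1 window is chr11:44619978-44620277 (plus strand), the Foxo1 window chr3:52268087-52268386 (plus strand) and the Ikzf1 window chr11:11689927-11690226 (plus strand). A match describes letters and not a binding site.
Ebf1 promoter, Ikaros motif: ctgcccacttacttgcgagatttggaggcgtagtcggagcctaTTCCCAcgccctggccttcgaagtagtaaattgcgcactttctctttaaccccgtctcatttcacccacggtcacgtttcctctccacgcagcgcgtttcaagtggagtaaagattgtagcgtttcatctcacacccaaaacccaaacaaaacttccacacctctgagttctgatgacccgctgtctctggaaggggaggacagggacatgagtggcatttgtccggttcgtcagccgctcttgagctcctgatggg
Foxo1 promoter, EBF motif: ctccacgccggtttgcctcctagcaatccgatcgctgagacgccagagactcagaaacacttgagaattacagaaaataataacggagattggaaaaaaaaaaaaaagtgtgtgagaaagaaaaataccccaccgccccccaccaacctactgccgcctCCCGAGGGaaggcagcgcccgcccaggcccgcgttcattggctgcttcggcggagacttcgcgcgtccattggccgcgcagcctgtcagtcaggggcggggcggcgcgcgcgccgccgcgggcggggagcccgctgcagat
Ikzf1 promoter, octamer core: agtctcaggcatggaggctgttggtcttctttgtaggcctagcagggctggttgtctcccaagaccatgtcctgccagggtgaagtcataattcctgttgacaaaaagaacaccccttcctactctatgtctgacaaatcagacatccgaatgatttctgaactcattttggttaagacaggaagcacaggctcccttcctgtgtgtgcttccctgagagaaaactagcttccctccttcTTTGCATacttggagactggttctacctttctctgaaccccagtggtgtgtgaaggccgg

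Because the summed B-lineage markers differed between the groups, although the sums of mature B genes overlapped (860 to 1110 RPM in DT and 561 to 1170 RPM in PBS), each factor was also set against Cd79a and Cd79b, the signalling chains of the B cell receptor, which are used through most of B cell development. Both fell (limma, adjusted p = 0.0105 and 0.0241). Cd79a did not pass under median-ratio or TMM scaling or without a filter, and Cd79b passed neither there nor without any 1 DT sample. Relative to the mean log2 level of the pair, none of the 8 factors passed in either direction (limma over all genes). At an unadjusted p under 0.05, Bach2 was lower and the other 7 did not pass, and with sample weights Tcf3 was called lower and Ikzf3 higher. On that relative scale 0.475% of all genes were called lower in DT and 26.4% higher, and the median over all genes was 0.55.

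The intervals of the relative changes differed in what they allow. For Bach2 the relative log2 change was -0.60 (95% interval -1.19 to -0.01; adjusted p = 0.128) and for Tcf3 it was -0.58 (95% interval -1.16 to 0.00; adjusted p = 0.134). Tcf3 stood at -3.65, -3.81 and -4.17 log2 units relative to the pair in DT, against -3.48, -2.82, -3.52 and -3.39 in PBS, so its samples did not overlap on this scale either. Bach2 stood at -2.33, -2.63 and -3.20 in DT, against -1.99, -1.82, -2.18 and -2.5 in PBS, where PBS replicate 4 lay within the DT range. Foxo1 was at -0.40 (95% interval -0.94 to 0.14) and Pax5 at -0.35 (95% interval -0.88 to 0.18). Pou2af1 and Ebf1 were closer to the receptor chains, at -0.19 (95% interval -0.70 to 0.32) and -0.18 (95% interval -0.66 to 0.30). Ikzf1 was at 0.03 (95% interval -0.48 to 0.54) and Ikzf3 at 0.49 (95% interval -0.19 to 1.16). The intervals are wide, and that of Bach2 alone excludes 0, before any adjustment; for the other factors a change equal to that of the receptor chains was not shown either. Cd79a is a known target of these same factors, so the pair is not an independent count of cells.

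**Figure D2:**
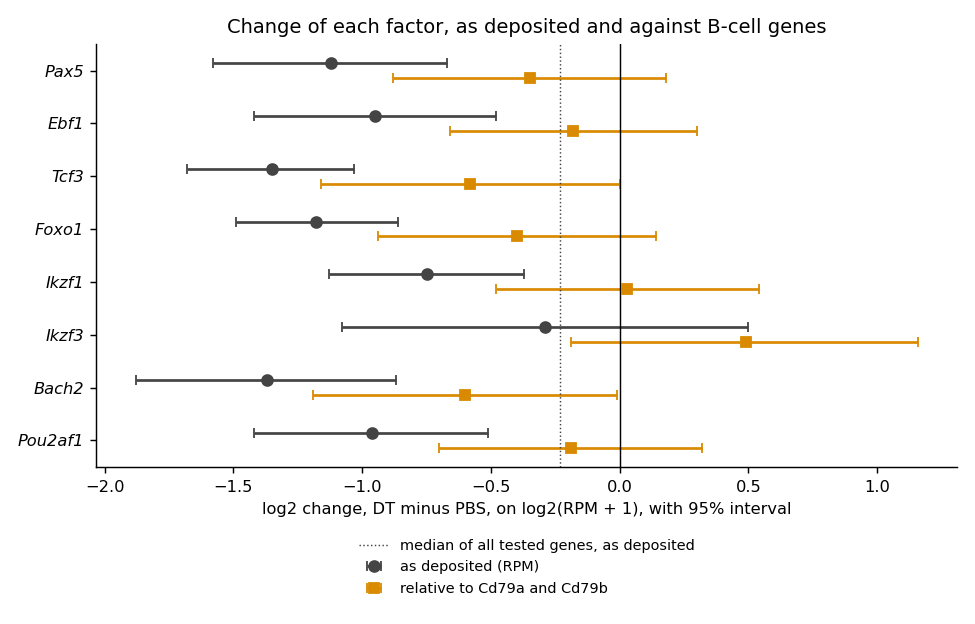
Log2 change, DT minus PBS, of each factor as deposited (circles) and relative to the mean of Cd79a and Cd79b (squares), with 95% intervals from limma; the dotted line is the median of all tested genes as deposited, -0.23. As deposited, 7 intervals lie below 0; on the relative scale those of Bach2 and Tcf3 end at about 0 (-0.01 and 0.00), and the other 6 extend above it.

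Of 16 early targets of these factors tested, 11 fell, 1 rose and 4 did not pass, with a median log2 change of -0.99. The shares over all genes were 18.6% called lower and 13.4% called higher. Cd79a and Cd79b, the reference pair above, are among the 11. The fallen genes number 7 under median-ratio or TMM scaling or without a filter. Vpreb3, a gene of pre-B cells, was at 383 ± 29.0 RPM in DT and 1060 ± 176 RPM in PBS (limma, adjusted p = 0.000144), and Rag1 and Rag2, which cut antigen receptor genes, fell to 0.349 and 0.367 times the PBS mean. Vpreb3 was also lower relative to Cd79a and Cd79b, at -0.68 (limma, adjusted p = 0.0441), and Rag1 missed the threshold there, at -0.74 (adjusted p = 0.0512). The gene that rose, Ptpn6, encodes a phosphatase used by most blood cells and was at 446 ± 9.25 RPM in DT and 151 ± 38.4 RPM in PBS.

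Among partners and other regulators of the lineage, 10 of 23 fell, 2 rose and 11 did not pass, with a median log2 change of -0.37. Across all genes, 18.6% were called lower and 13.4% higher. The count of falls was 4 under median-ratio or TMM scaling and without DT replicate 1 or DT replicate 3, and 5 without a filter. The 4 falls with the smallest p were those of Sox4, Myb, Lef1 and Bcl11a. Sox4, needed for pro-B cells, was at 21.0, 19.5 and 16.1 RPM in DT, against 86.5, 72.3, 60.4 and 70.6 RPM in PBS (limma, adjusted p = 5.79e-05). Myb, a progenitor factor, averaged 136 ± 25.1 RPM in DT and 398 ± 59.5 RPM in PBS, and Lef1, a Wnt pathway factor of pro-B cells, 56.6 ± 7.87 RPM in DT and 179 ± 42.7 RPM in PBS. Bcl11a, required for the earliest B-cell step, averaged 36.3 ± 0.285 RPM in DT and 128 ± 35.5 RPM in PBS. Relative to Cd79a and Cd79b, Sox4 (-1.11; limma, adjusted p = 0.0135) and Myb (-0.77; adjusted p = 0.0461) were lower too, and Lef1 (-0.85; adjusted p = 0.0514) and Bcl11a (-0.97; adjusted p = 0.0655) missed the threshold. Spi1, a myeloid and B-cell factor, and Bcl6 were the 2 that rose. The octamer factors, with which POU2AF1 works, did not give the same call. Pou2f1 fell, at 34.2 ± 5.75 RPM in DT and 63 ± 16.8 RPM in PBS (limma, adjusted p = 0.0214). Pou2f2 was at 22.0 ± 2.87 RPM in DT and 22.4 ± 5.29 RPM in PBS, without passing (limma, adjusted p = 0.993).

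The inhibitors of E proteins split by member. ID proteins bind E proteins such as the TCF3 product and keep them from DNA. Id2, the member of natural killer and myeloid cells, was at 160, 136 and 161 RPM in DT, against 31.7, 10.5, 17.9 and 19.6 RPM in PBS (limma, adjusted p = 8.52e-05). Id1 was at 14.1, 20.0 and 19.5 RPM in DT, against 0.874, 1.61, 1.85 and 1.5 RPM in PBS (limma, adjusted p = 6.53e-05). Both rose with wide gaps between the groups, whereas Id3, which is induced by receptor signals in lymphocytes, fell to 66.7 ± 2.62 RPM in DT, against 117 ± 9.07 RPM in PBS (limma, adjusted p = 0.00155). Id4 was too low to test. These 3 calls held under each of the 18 alternatives.

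Of the family relatives, 8 of 13 were tested, with 2 falls, 1 rise and a median log2 change of -0.41. Among all genes, 18.6% were called lower and 13.4% higher, with a median of -0.23. The counts were not tested against those shares. The E protein genes Tcf12 and Tcf4 fell with Tcf3: Tcf12 was at 70.0 ± 8.77 RPM in DT and 152 ± 49.9 RPM in PBS (limma, adjusted p = 0.00605), and Tcf4 at 98.9 ± 16.8 RPM in DT and 170 ± 0.421 RPM in PBS (adjusted p = 0.00279). Pax8, a relative of Pax5 known from thyroid and kidney, was called higher from very low levels, at 2.08, 2.28 and 3.01 RPM in DT, against 0, 0.0256, 0 and 0.0259 RPM in PBS, where the values above 0 equal 1 read. It passed the filter only through DT, and it was not called without DT replicate 1, 2 or 3. Ebf2 and Pax2 were at 0 in every library. Ikzf2 (5.64 ± 1.73 RPM in DT and 2.59 ± 1.94 RPM in PBS) did not pass (adjusted p = 0.0858).

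**Figure D3:**
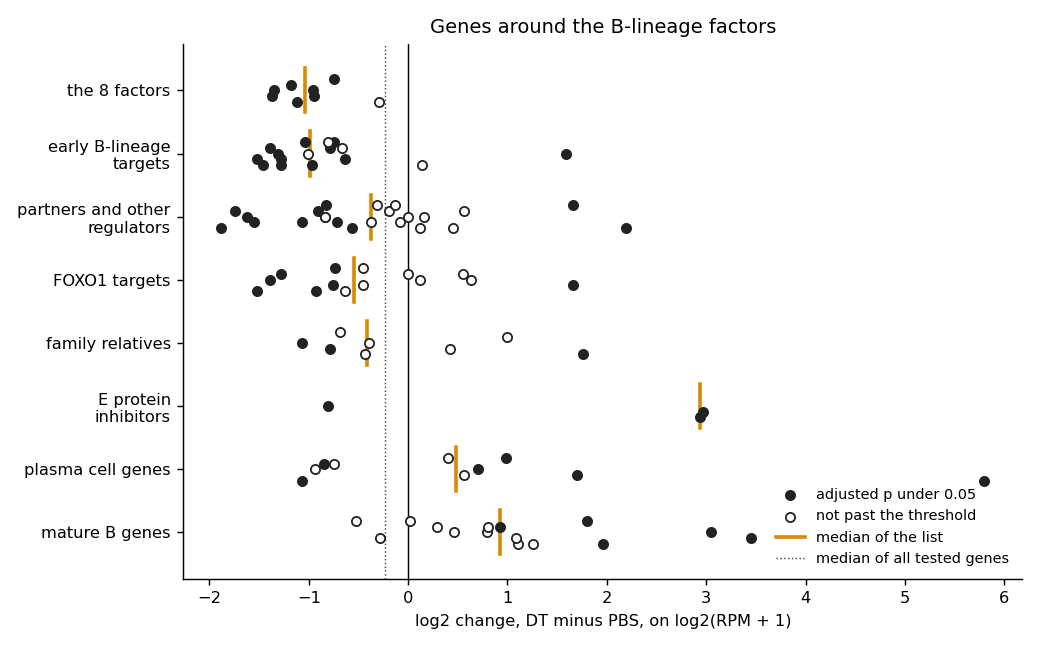
Log2 change, DT minus PBS, of the 8 factors and of the tested genes of 7 lists, 1 point a gene; filled points passed an adjusted p under 0.05, orange bars are list medians and the dotted line is the median of all tested genes, -0.23. The factors and their early targets lie mostly left of 0 (medians -1.04 and -0.99), and mature B genes mostly right of it (median 0.92).

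FOXO1 targets mostly fell or did not pass. Of 14 tested, 6 fell, 1 rose and 7 did not pass, with a median log2 change of -0.55. For comparison, 18.6% of all genes were called lower and 13.4% higher. Of the 14, 3 fell under median-ratio or TMM scaling, without a filter, without DT replicate 3 or without PBS replicate 4. Rag1, Rag2 and Il7r, shared with the early targets, were among the falls, and Il7r, the interleukin-7 receptor chain of B cell precursors, was at 93.5 ± 17.3 RPM in DT and 238 ± 87.6 RPM in PBS (limma, adjusted p = 0.00512). Bcl6, a transcriptional repressor used by germinal centre B cells, rose to 22.1 ± 2.30 RPM in DT, against 6.44 ± 1.65 RPM in PBS (limma, adjusted p = 0.00122). The count of rises was 3 under median-ratio or TMM scaling or with sample weights, and 2 under quantile normalization, without a variance trend or without PBS replicate 1.

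Of 15 genes of mature B cells tested, 5 rose, none fell and 10 did not pass, where 13.4% of all genes were called higher. Their median log2 change was 0.92. Relative to Cd79a and Cd79b, 13 of the 15 were called higher, where 26.4% of all genes were. As deposited, the 5 were 3 without DT replicate 3 and 8 under TMM scaling, and 2 genes were called lower without PBS replicate 2. Fcer2a, the low-affinity IgE receptor of mature B cells, was at 28.7, 42.4 and 60.6 RPM in DT, against 2.5, 2.27, 9.01 and 1.09 RPM in PBS (limma, adjusted p = 0.00076). Cr2, a complement receptor of mature B cells, was at 6.11, 7.23 and 7.36 RPM in DT, against 0.934, 1.43, 1.05 and 0.724 RPM in PBS (limma, adjusted p = 0.000641). Both were higher in every DT sample. Cd83, Cd55 and Btla, which rose too, are also known from other leukocytes. T and natural killer cell markers, which could share Btla, Ikzf3 and Bach2, summed to between 360 and 374 RPM in DT and between 30.0 and 74.9 RPM in PBS, with 10 of 11 called higher. Of these, 7 averaged under 1 RPM in PBS and passed the filter only through DT, and 2 were called at a minimum mean of 5 RPM. Nkg7, a cytotoxic granule gene, held most of the sum, at 270 ± 20.8 RPM in DT and 28.0 ± 14.5 RPM in PBS. Their part in these results was not tested. Ms4a1, the mature B-cell antigen CD20, did not pass as deposited, with 120, 152 and 175 RPM in DT and 142, 15.6, 141 and 42.2 RPM in PBS (limma, adjusted p = 0.163), and was called higher relative to Cd79a and Cd79b (2.04; adjusted p = 0.00664). Its PBS samples ran in the order of those of Ikzf3, with replicates 1 and 3 high, replicate 4 lower and replicate 2 lowest.

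Plasma cell genes, several of which PAX5 or BACH2 are known to hold down, gave 4 rises and 2 falls among 10 tested. Of all genes, 13.4% were called higher and 18.6% lower. The median log2 change of the list was 0.48. Jchain, the joining chain of secreted antibodies, was at 337, 353 and 233 RPM in DT, against 0.783, 3.63, 38.7 and 1.66 RPM in PBS (limma, adjusted p = 0.000981). Xbp1, the factor of the secretory programme, was at 119 ± 9.70 RPM in DT and 72.7 ± 8.72 RPM in PBS (limma, adjusted p = 0.00548), and Fkbp11 and Creld2 rose as well. Irf4 and Mzb1, also used by B cell precursors, fell, but neither fall was called under median-ratio or TMM scaling. Prdm1, the factor that BACH2 represses most directly, averaged under 1 RPM and was not tested.

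**Figure D4:**
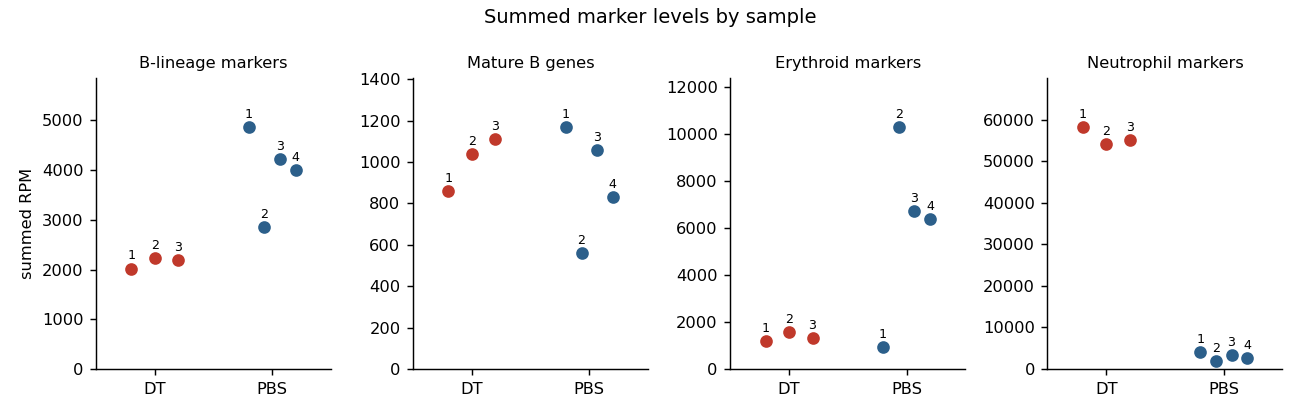
Summed level in RPM (vertical axes, from 0) of 6 B-lineage markers, 15 mature B genes, 9 erythroid markers and 10 neutrophil markers in each DT sample (red, left) and PBS sample (blue, right), with replicate numbers. DT samples are below all PBS samples for B-lineage markers and above them for neutrophil markers, while PBS replicate 2 has the lowest B-lineage sum, 2860 RPM, and the highest erythroid sum, 10300 RPM.

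Within PBS, the level of the factors varied with the library. PBS replicate 1 had the highest value of Pax5, Tcf3, Foxo1, Ikzf1, Ikzf3, Bach2 and Pou2af1, and PBS replicate 2 the lowest of Pax5, Ebf1, Foxo1, Ikzf1, Ikzf3 and Pou2af1. The B-lineage sum was likewise 4870 RPM in PBS replicate 1 and 2860 RPM in PBS replicate 2, and the erythroid sum ran the other way, at 928 and 10300 RPM. In DT the erythroid sum lay between 1170 and 1550 RPM. The part of this shift between libraries in the factors' values was not tested. Without PBS replicate 1 or without PBS replicate 2, 7 factors were called lower; PBS replicates 3 and 4 had erythroid sums of 6730 and 6360 RPM. Across all 7 samples, which share the group difference and the library, Pearson correlations of log2 levels ran from 0.86 to 0.99 among the 7 factors that fell and from 0.30 to 0.56 between each of them and Ikzf3. After group means were taken out, the closest pairs were Ikzf1 with Pou2af1 (r = 0.91) and Foxo1 with Pou2af1 (r = 0.87).

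Genes with the most similar pattern over the 7 samples were taken from 7998 genes of at least 10 RPM. The 3 closest to Pax5 were Phf6 (r = 0.997), Crebbp (r = 0.995) and the adaptor Blnk (r = 0.994). Those closest to Ebf1 were Taf3 (r = 0.992), the receptor chain Cd79a (r = 0.988) and Msh3 (r = 0.983), and those closest to Tcf3 were Rad50 (r = 0.998), Top2b (r = 0.995) and Sox4 (r = 0.993). The first for Foxo1 was Socs4 (r = 0.996), for Ikzf1 Runx1 (r = 0.993), for Bach2 Ubl5 (r = 0.994) and for Pou2af1 Ptprcap (r = 0.999), a CD45-associated protein of lymphocytes. The closest genes to Ikzf3 were Ubl3 (r = 0.957) and Ly6d (r = 0.951), a surface marker of B-lineage and plasmacytoid cells at 209, 255 and 232 RPM in DT and 374, 184, 499 and 201 RPM in PBS. With 7 samples in 2 groups, such correlations describe these libraries.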

How the data were processed

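RNA-seq values of 7 samples were used. Per the labels' protocols, 1 ng of RNA went into a SMARTer kit for low input with 14 cycles of amplification, and single reads of 50 bases were taken. STAR 2.5.3a, Partek and build mm10 are named per the submitters' processing notes; for annotation, quantification and strand the sources used here give nothing. In the table the authors deposited, named for FPKM, the unit was found to be RPM: in each library 1038 to 1220 genes, whose lengths differed at least 6.06-fold between quartiles, share the most frequent low value. An offset of 0.0001 was subtracted. Only 60.1% to 62.2% of values below 20 such steps lay within 0.02 step of a whole number, hence reads could not be recovered and counts were not modelled. The design had left the unit to be checked, and the limma test on log2(RPM + 1) was kept.

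The fit used limma 3.58.1 (R 4.3.3) with a mean-variance trend on every gene averaging 1 RPM or more, and two-sided p-values were adjusted by Benjamini-Hochberg across them. For relative levels, the sample's mean log2(RPM + 1) of Cd79a and Cd79b was subtracted from every gene first; this was an alternative to a wider reference, taken as the reported one after results with both were seen, because genes that are not reported here were left out of the reference and the lists. The members and lists were chosen with earlier results of these data known. Named genes are the members and up to 4 called genes of each list with the smallest p. The most abundant markers of a cell type and the 3 genes of most similar pattern are named too. Spi1, Pou2f1, Pou2f2, Ikzf2, Btla, Irf4, Creld2, Prdm1, Id4, Ebf2, Pax2, Flt1, C1qa, Pacsin1 and Ms4a1 were chosen after their values were seen. So were Sdc1, Ell2, Edem1, Derl3, Tnfrsf17 and the transcripts overlapping a factor. On data simulated for DT against PBS (14099 genes), 2-fold changes were called in 70.9% of 103 genes and 4-fold changes in 100% of 97. Of the calls, 7.1% were false. The simulation changed 200 genes and gave every gene the same spread beyond counting error. The real groups differ in many more genes, so these rates need not hold for them. Alternatives covered pseudocount, filter, scaling, trend, weights, replicate block and leaving out each sample; voom on reads estimated from the steps was added after seeing the data. Dates had replaced 26 gene names. P-values measure the spread between these samples.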

Additional observations from a re-analysis of the deposited data

Results flagged for a closer look

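Of 69 genes checked among the 4 PBS samples, 6 had a sample whose gap to the rest was large for the range; chance flags about 1 in 20 such groups. Ebf1 was at 550 RPM in PBS replicate 2, where the other PBS samples were between 969 and 983 RPM. In the same library Pax5 was at 182 RPM and the B-lineage marker sum at 2860 RPM, the lowest of the group. Jchain was at 38.7 RPM in PBS replicate 3, where the others were between 0.783 and 3.63 RPM. Ly6c2, a monocyte gene, was at 178 RPM in PBS replicate 1 and at 81.7 to 96.8 RPM in the others. Tfrc, the transferrin receptor, was at 196 RPM in PBS replicate 2 and at 95.9 to 110 RPM in the others. Pacsin1 was at 0.301 RPM in PBS replicate 1 and Cd8a at 0.0527 RPM in PBS replicate 3, which is under the floor of 3 reads.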

How the results depend on the processing

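The fall of Pax5, Ebf1, Tcf3, Foxo1, Bach2 and Pou2af1 was called under each of the 18 alternatives, with log2 changes between -1.50 and -0.69, and Ikzf3 was called under none (adjusted p from 0.206 to 0.955). Ikzf1 kept its direction under all 18 and missed the threshold under median-ratio (-0.50) and TMM scaling (-0.49), which left 6 factors called; these scalings moved the median of all genes from -0.23 to -0.01 and 0.00. Over all genes, 1894 were higher and 2622 lower, and the number lower was 1689 without a filter, 1259 under median-ratio scaling and 1091 under TMM scaling, where 65.5% and 69% of calls were rises against 41.9%. Leaving out 1 sample gave 1208 to 3628 lower and 1383 to 2108 higher, with 1500, 1609 and 1208 lower without DT replicate 1, 2 and 3. Fewer samples were fitted there; otherwise the cause was not tested. Same-numbered samples did not deviate together (correlations 0.01 to 0.05), and differently numbered samples ran from -0.05 to 0.05. So few pairs cannot show that same-numbered samples share nothing but a number. With the replicate number as a block, 1942 genes were higher and 2783 lower, and the same 7 factors were called. The block changed no other call of a factor. Relative to Cd79a and Cd79b, 0 factors passed, but with sample weights 1 was lower (Tcf3, adjusted p = 0.0331) and 1 higher (Ikzf3, adjusted p = 0.0462). The relative change of Ikzf1, 0.03, was between -0.07 and 0.13 when 1 sample was left out, with -0.05 without DT replicate 2 and -0.07 without PBS replicate 3. Depth did not limit the factors, which were at least 16 RPM in every library.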

Other observations

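Transcripts annotated on the other strand of the factor loci had values of their own in the table, but without knowledge of strand use their reads and those of the factors cannot be told apart. Gm12158, annotated antisense in the Ebf1 locus with no shared exonic base, was at 10.3 ± 2.11 RPM in DT (SD, n = 3) and 29.2 ± 12.8 RPM in PBS (SD, n = 4), lower in DT without overlap (limma, adjusted p = 0.0192). Bach2os, antisense to Bach2, averaged 1.84 ± 1.19 RPM in DT and 5.61 ± 3.67 RPM in PBS and did not pass (limma, adjusted p = 0.122). Both transcripts were chosen after their values were seen.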
